A study of Arabidopsis thaliana with 6 samples.

Results

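Expansins are small secreted proteins that loosen the plant cell wall as it grows. They act at acid pH on the contacts between cellulose and other wall polymers without cutting them, and wall extension by turgor follows. The family has 4 branches: the alpha expansins (EXPA), the beta expansins (EXPB), and the expansin-like proteins A (EXLA) and B (EXLB), whose wall-loosening activity is less well established. The expansins described here were those read by an Arabidopsis array in shoots of a cabbage relative that had been starved of phosphate or kept on full nutrients.

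Members were the probe sets assigned to 1 gene whose symbol in the Arabidopsis gene table begins with EXPA, EXPB, EXLA or EXLB and a number, with or without the prefix AT. The rule used names and no measured value. It gave 18 probe sets of 22810, each for a different gene, among 13286 genes that the arrays read by name: 10 EXPA, 4 EXPB, 3 EXLA and 1 EXLB. The gene table holds 34 such symbols. Of the other genes, 3 share 2 probe sets that were designed for several expansins, and 13 are not analysed here. All 18 members had a signal on all 6 arrays, and no filter on low values was applied.

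The 3 P-starved arrays (phosphate-starved) and 3 replete arrays (nutrient-replete) were Affymetrix ATH1 arrays of shoot RNA. The plants, line A12dH (a doubled haploid), were Brassica oleracea var. alboglabra by the sample labels, although the organism entered for the arrays is Arabidopsis thaliana. Both groups grew on compost at 22 °C with a day of 16 h and deionised water each day, and their stated difference was phosphate supply. The sources used here name neither plant age nor the length of starvation. They do not say whether replicates were separate plants, and the spread behind each p-value may thus be technical. The probes were designed for Arabidopsis thaliana, and a name here is that of the Arabidopsis gene. Neither the Brassica copies of that gene nor close relatives within the family can be resolved. In bulk shoots, fewer cells of a type and less RNA per cell cannot be told apart.

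The arrays fell into 2 processing sets, each holding both groups. The replicate 1 arrays (the first set) list 22810 probe sets, and the replicate 2 and 3 arrays (the second set) list 19642 of them. Log2 signals correlated across probe sets with r of 0.903 to 0.927 within a set and 0.608 to 0.633 between the sets. Group differences were therefore fitted with the set as a block and are also given within each set. Of the shoot markers, genes of leaf photosynthesis, 4 of 18 were measured by name. Their summed signal on the replicate 1 arrays was 8792 in P-starved and 11281 in replete shoots. On the replicate 2 and 3 arrays it was 3083 and 2653 in P-starved and 2615 and 3109 in replete shoots. The 4 differed in sign, with log2 differences of -0.36 ± 0.15 for SBPASE, -0.31 ± 0.22 for PRK, 0.21 ± 0.15 for LHCB4.1 and 0.56 ± 0.34 for PSBY (SE). The root marker PYK10 was at 74.0 to 134 in P-starved and 63.7 to 105 in replete arrays, a log2 difference of 0.27 ± 0.30 (SE), and its part in the results below was not tested. FMA, a guard cell lineage regulator and the 1 epidermal marker measured, was at 86.0 to 223 in P-starved and 75.4 to 256 in replete arrays, and the flower and xylem markers were not measured by name.

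**Figure D1:**
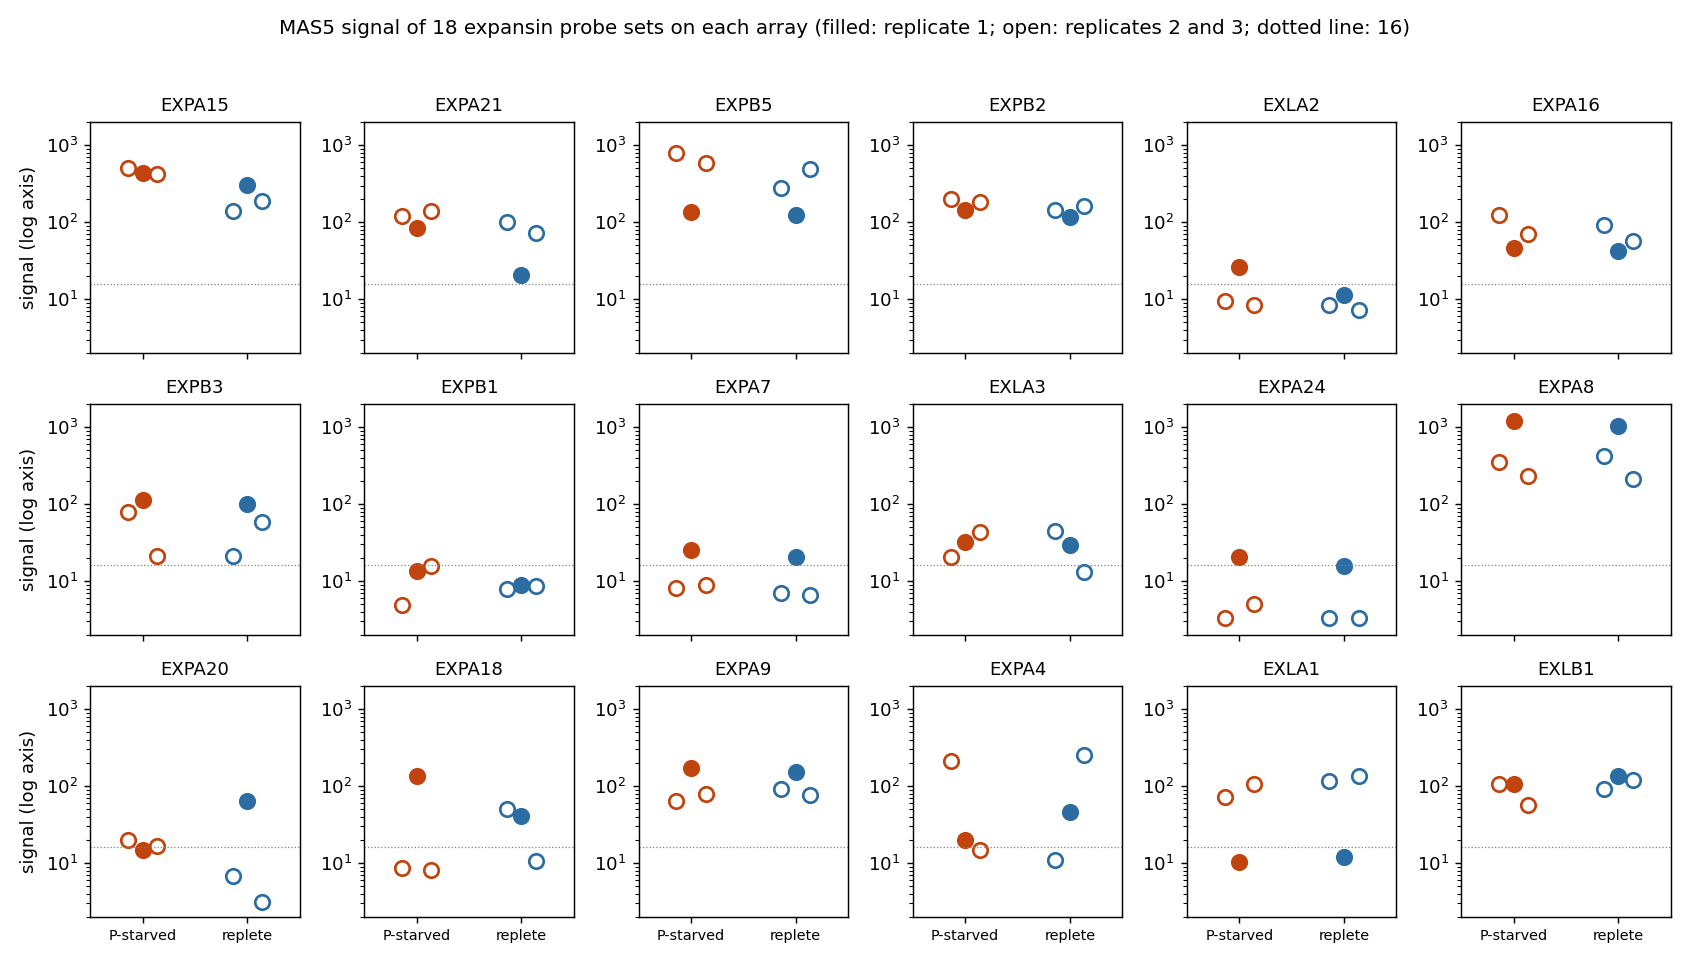
Signal of each of the 18 expansin probe sets on a log axis, with P-starved arrays in orange on the left and replete arrays in blue on the right of each panel. Filled points are replicate 1 and open points replicates 2 and 3, and the dotted line marks a signal of 16. For EXPA15 all 3 P-starved points lie above all 3 replete points, while for EXPA8, EXLA1 and EXPB5 the filled points stand apart from the open points in both groups.

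EXPA15 (AT2G03090) and EXPA21 (AT5G39260), both alpha expansins, had the largest differences of the family, and both were brighter in P-starved shoots. Neither passed the test over all 19578 probe sets, and no other expansin did. EXPA15 had a signal of 432, 501 and 430.0 on P-starved replicates 1, 2 and 3, against 300.5, 140.4 and 188 on replete replicates 1, 2 and 3. Every P-starved array was above every replete array, and the mean signal was 454 ± 40.5 against 209.5 ± 82.2 (SD, n = 3 each), a ratio of 2.17. It was the 1 expansin of 18 whose groups did not overlap over all 6 arrays with P-starved above, as did 2.27% of all probe sets. None was without overlap with P-starved below, which 1.92% were, and 4.19% of all probe sets were so in either direction. On the scale of log2(signal + 16), which understates the change of dim probe sets, its P-starved minus replete difference was 1.12 ± 0.25 (SE, 95% confidence interval 0.50 to 1.74). The limma adjusted p was 0.788, and the unadjusted p 0.00485.

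EXPA15 differed less on the replicate 1 arrays, where the log2 difference was 0.50, than on the replicate 2 and 3 arrays, where it was 1.43 ± 0.21 (SE; limma adjusted p = 0.523). Its 3 P-starved signals lay within 430.0 to 501, so the gap between the sets was in the replete arrays, where replicate 1 was the brightest. The interaction of group and processing set, which tests this gap itself, gave 0.93 ± 0.36 with a limma adjusted p of 0.548.

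EXPA21 lies next to another expansin, EXPA22, in the Arabidopsis gene table. It had a signal of 83.2, 119 and 142 on P-starved replicates 1, 2 and 3, against 20.7, 100.5 and 73.1 on replete replicates 1, 2 and 3. P-starved arrays were above replete arrays within each processing set, but over all 6 arrays P-starved replicate 1 lay under replete replicate 2. The means were 115 ± 29.5 in P-starved and 64.7 ± 40.5 in replete shoots (SD, n = 3 each). The log2 difference was 0.83 ± 0.29 (SE, 95% confidence interval 0.10 to 1.55), with a limma adjusted p of 0.788 and an unadjusted p of 0.0318. Without the set as a block its SE was 0.54 and the unadjusted limma p 0.170, so that the interval excludes 0 depends on the block.

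For EXPA21 the larger gap was on the replicate 1 arrays, at 1.43, and the replicate 2 and 3 arrays gave 0.52 ± 0.27 (SE; limma adjusted p = 0.780). The order of the sets was thus opposite to that of EXPA15. The interaction was -0.91 ± 0.46 (limma adjusted p = 0.660), so the 2 sets were not shown to differ for this gene either. EXPA24 (AT5G39310), which lies next to EXPA25, was at 20.4, 3.30 and 5.00 in P-starved and 15.8, 3.30 and 3.30 in replete shoots, so that 5 of 6 arrays were under 16.

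EXPA15 and EXPA21 were also the 2 members with an unadjusted p under 0.05 and a difference above 0, where 2.71% of all probe sets had one. No expansin had such a p with a difference below 0, where 3.20% of all probe sets did. Over all probe sets limma called 0 higher and 0 lower at an adjusted p of 0.05, and the counts at an unadjusted p under 0.05 were 530 and 627. Among the 19578 probe sets the smallest adjusted p was 0.788, which several members share. The Benjamini-Hochberg step gives a smaller p the adjusted value of a larger p where that value is lower.

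**Figure D2:**
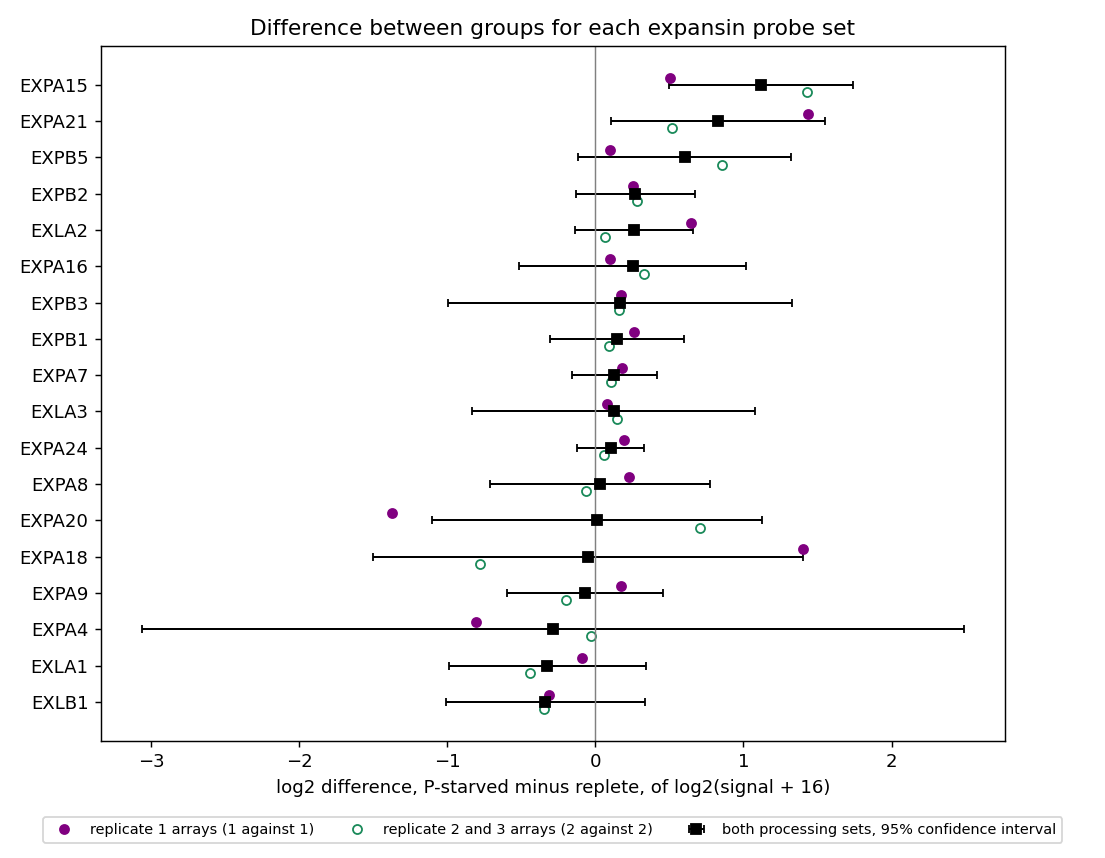
P-starved minus replete difference of log2(signal + 16) for each expansin, in order of size. Black squares with bars are the fit over both processing sets with its 95% confidence interval, filled points the replicate 1 arrays (1 against 1) and open points the replicate 2 and 3 arrays (2 against 2). The intervals of EXPA15 and EXPA21 lie above 0, before adjustment for the number of probe sets tested, and those of the other 16 members hold 0.

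The beta expansins all had differences above 0 in both processing sets, as did 5681 of all 19578 probe sets. EXPB5 (AT3G60570), which has been linked to pollen tube growth in Arabidopsis, had a signal of 134, 792 and 588 on P-starved replicates 1, 2 and 3, against 124, 281.5 and 486 on replete replicates 1, 2 and 3. The P-starved arrays were above the replete arrays within each set, by little on the replicate 1 arrays. Its log2 difference was 0.60 ± 0.29 (SE, 95% confidence interval -0.11 to 1.32; limma adjusted p = 0.788). The first set gave 0.10 and the second 0.85, and the fit gave 0.32 when replete replicate 2 was left out.

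EXPB2 (AT1G65680) had similar differences in the 2 sets, at 0.25 in the first and 0.28 in the second. Its signal was 144, 203 and 181 on P-starved replicates 1, 2 and 3, against 118, 146 and 164 on replete replicates 1, 2 and 3. The arrays did not overlap within a set, although P-starved replicate 1 lay under 2 of the replete arrays. The log2 difference was 0.27 ± 0.16 (SE, 95% confidence interval -0.13 to 0.67; limma adjusted p = 0.788).

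EXPB3 (AT4G28250) varied within the groups more than between them. It was at 114, 78.2 and 21.1 in P-starved shoots, against 99.1, 21.5 and 58.4 in replete shoots, with a log2 difference of 0.17 ± 0.47 (SE). EXPB1 (AT2G20750) lay under 16 on all 6 arrays, at 4.90 to 15.9 in P-starved and 7.80 to 8.80 in replete shoots, and its difference of 0.15 ± 0.18 (SE) says little about its level. The median log2 difference of the 4 beta expansins was 0.22.

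Among the other alpha expansins, EXPA8 (AT2G40610) was the brightest probe set of the family on the replicate 1 arrays. Brightness also depends on the probes and on how well Brassica RNA matches them, so it does not rank the genes by transcript amount. Its signal was 1207, 351 and 235.5 on P-starved replicates 1, 2 and 3, against 1029, 427 and 212 on replete replicates 1, 2 and 3. The groups overlapped on the replicate 2 and 3 arrays, and the log2 difference was 0.03 ± 0.30 (SE, 95% confidence interval -0.71 to 0.78).

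EXPA16 (AT3G55500) was at 46.3, 126 and 71.1 in P-starved shoots, against 42.1, 91.3 and 57.2 in replete shoots, which differed by 0.25 ± 0.31 (SE, log2). EXPA9 (AT5G02260) was at 174, 64.7 and 80.1 in P-starved shoots, against 153, 93.0 and 77.2 in replete shoots, a difference of -0.07 ± 0.21 (SE). In both genes the groups overlapped on the replicate 2 and 3 arrays.

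EXPA4 (AT2G39700), also linked to pollen tube growth in Arabidopsis, was bright on 1 array of each group. Its signal was 19.8, 212 and 14.9 on P-starved replicates 1, 2 and 3, against 46.6, 10.9 and 256 on replete replicates 1, 2 and 3. The 2 high arrays differ in group and in replicate number, and the 95% confidence interval of its log2 difference ran from -3.06 to 2.49.

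EXPA7 (AT1G12560) and EXPA18 (AT1G62980) are expansins of root hairs in Arabidopsis. EXPA7 was at 25.2, 8.20 and 8.90 in P-starved shoots, against 20.4, 7.0 and 6.70 in replete shoots, under 16 on 4 of 6 arrays. EXPA18 was at 136, 8.60 and 8.10 in P-starved shoots, against 41.4, 49.7 and 10.5 in replete shoots. Its 1 bright P-starved array was replicate 1, and the sets differed in sign: the log2 difference was 1.40 in the first set and -0.78 in the second (interaction -2.18 ± 0.91, limma adjusted p = 0.579).

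EXPA20 (AT4G38210) also pointed in opposite directions in the 2 sets. It was at 14.9, 19.7 and 16.5 on P-starved replicates 1, 2 and 3, against 63.9, 6.80 and 3.10 on replete replicates 1, 2 and 3. The 3 P-starved arrays lay close together while replete replicate 1 was high and the other replete arrays were dim. In the first set the P-starved array was lower by a log2 difference of -1.37, in the second the difference was 0.71 ± 0.17 (SE), and over both it was 0.01 ± 0.45. The interaction was 2.08 ± 0.29, with an unadjusted p of 0.00272 and a limma adjusted p of 0.201. It was the smallest adjusted p for an interaction in the family, and EXPA20 was 1 of 2 members with an unadjusted interaction p under 0.05, where 9.94% of all probe sets had one.

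The second of these was EXLA2 (AT4G38400), an expansin-like gene whose loss in Arabidopsis increases resistance to a necrotrophic fungus. Its signal was 26.6, 9.60 and 8.30 in P-starved shoots, against 11.2, 8.40 and 7.20 in replete shoots, so 5 of 6 arrays were under 16. The first set gave a log2 difference of 0.65 and the second 0.07, and the interaction had a limma adjusted p of 0.407.

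EXLA1 (AT3G45970) and EXLB1 (AT4G17030) were the members with the lowest differences. EXLA1 had a signal of 10.4, 71.3 and 107 on P-starved replicates 1, 2 and 3, against 12.1, 117 and 133 on replete replicates 1, 2 and 3. The P-starved arrays lay below the replete arrays within each set, and the log2 difference was -0.33 ± 0.27 (SE, 95% confidence interval -0.99 to 0.34; limma adjusted p = 0.796). EXLA3 (AT3G45960), the gene next to EXLA1 in the Arabidopsis gene table, was at 31.8, 20.7 and 43.8 in P-starved shoots, against 29.2, 45.5 and 13.2 in replete shoots.

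EXLB1 had a signal of 106, 107 and 56.9 in P-starved shoots, against 135.0, 91.8 and 119.0 in replete shoots, and the groups overlapped on the replicate 2 and 3 arrays. Its log2 difference was -0.34 ± 0.27 (SE, 95% confidence interval -1.01 to 0.34; limma adjusted p = 0.794). It was much alike in the 2 sets, at -0.31 in the first and -0.35 in the second.

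Across the family, 13 of 18 members had a log2 difference above 0, as did 52.6% of all probe sets. The median over the members was 0.13, against 0.02 over all probe sets. A signal of at least 16 on every array was found for 9 of the members. Between the groups, 5 members did not overlap in either processing set with P-starved above in both (EXPA15, EXPA21, EXPB5, EXPB2 and the dim EXPA7), where 11.8% of all probe sets did so. EXLA1 was the 1 member without overlap and with P-starved below in both sets, where 8.59% did so. Its order in the first set rests on signals of 10.4 and 12.1, both under 16. Both sets gave the same sign in 14 of 18 members, against 52.1% of all probe sets. That sign was above 0 in 11 members and below 0 in 3, against 5681 and 4525 of all 19578 probe sets. Members of a family can share hybridising transcripts, so they are not independent readings.

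In the first set alone 14 of 18 differences were above 0 (median 0.18), and in the second 12 of 18 were (median 0.10). The corresponding shares of all probe sets were 52.0% and 53.9%. In the second set limma called 0 of 18 expansins and 0 of 19578 probe sets. EXPA15 and EXPA20 had an unadjusted p under 0.05 there with a difference above 0, which 3.51% of all probe sets had. No expansin had one with a difference below 0, which 3.79% had.

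In order of their differences, EXPA15, EXPA21 and EXPB5 led at 1.12, 0.83 and 0.60, and the gaps between these neighbours were about the size of their standard errors. From EXPB2 at 0.27 down to EXPA9 at -0.07 each gap between neighbours was smaller than the standard error of either, so neighbours there did not differ beyond their spread. The standard errors ran from 0.09 for EXPA24, which was dim on most arrays, to 1.11 for EXPA4.

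**Figure D3:**
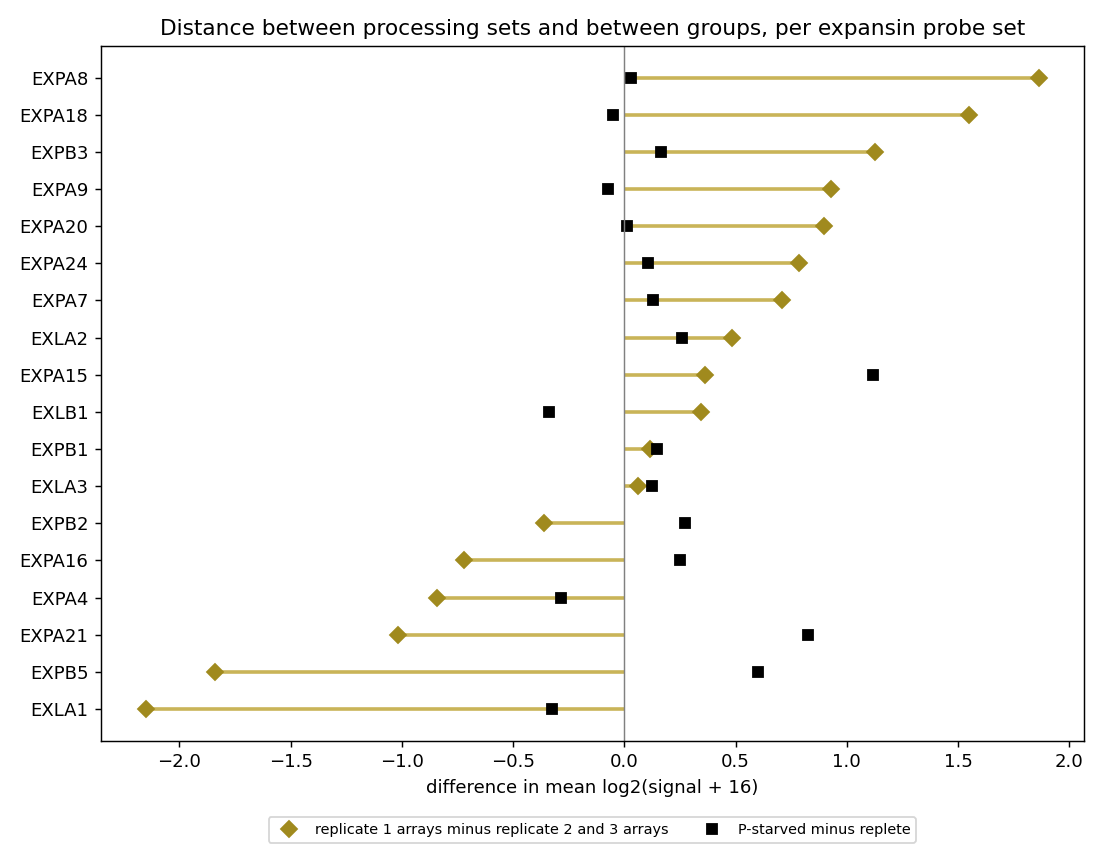
For each expansin, the mean log2(signal + 16) of the replicate 1 arrays minus that of the replicate 2 and 3 arrays (diamonds, with a line to 0) and the P-starved minus replete difference (black squares). In 15 of 18 members the diamond lies farther from 0 than the square, and EXPA15 is the clearest exception.

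For most expansins the distance between the processing sets was larger than that between the groups. It was the larger in 15 of 18 members, as in 80.7% of all probe sets, and the exceptions were EXPA15, EXPB1 and EXLA3. EXPA8 averaged 1118 on the replicate 1 arrays and 306 on the replicate 2 and 3 arrays, a distance of 1.86 on the log2 scale. EXLA1 lay the other way, at 11.2 and 107 (-2.15), and so did EXPB5, at 129 and 537 (-1.84). Other members with a distance over 1 in size were EXPA18, EXPB3 and EXPA21, which makes 6 of 18, against 40.1% of all probe sets. The median size of this distance was 0.81 for the expansins and 0.77 for all probe sets.

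Genes of like pattern were sought by the Pearson r of log2(signal + 16), centred within each set, over the 6 arrays and among 6042 probe sets with 1 gene and a mean signal of at least 50. With so few arrays high values of r arise in number, and they are given as a description. AT1G22690 was closest to EXPA15, with r = 0.999, at 171, 176 and 164 in P-starved and 137, 77.7 and 97.9 in replete shoots. AT5G48420 and AT1G07750 followed, each with r = 0.993, and their log2 differences were 0.12 and 0.49. AT1G72070 was closest to EXPA21, with r = 0.998, at 64.9, 109 and 122 in P-starved and 17.4, 88.2 and 71.3 in replete shoots. AT3G22440 with r = 0.996 and AT3G07580 with r = 0.995 came next.

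Expansins act beside enzymes that build, cut and rejoin wall polymers, and 79 loci of that kind were listed. Of these 16 were measured by name: 10 of 33 xyloglucan endotransglucosylase/hydrolases (XTH), 4 of 16 pectin enzymes, 1 of 13 genes of cellulose synthesis and 1 of 6 of xyloglucan synthesis. None of the 11 plasma membrane proton pumps, which acidify the wall and so favour expansin action, was measured by name. The test called 0 of 16 genes in either direction. Of the 16, 8 had a difference above 0 and 8 below, with a median of 0.02, the same as over all probe sets to 2 decimals, and in the fit over both sets none had an unadjusted p under 0.05.

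**Figure D4:**
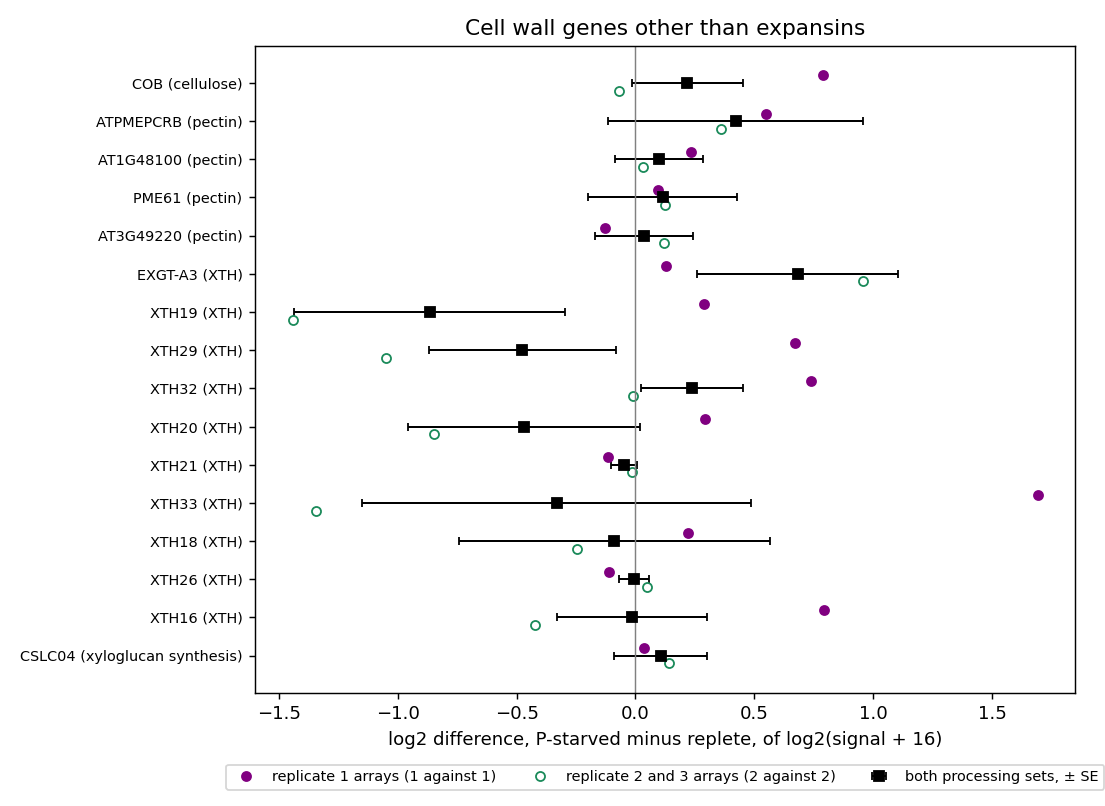
P-starved minus replete difference of log2(signal + 16) for the 16 measured cell wall genes. Squares with bars are the fit over both processing sets ± SE, filled points the replicate 1 arrays and open points the replicate 2 and 3 arrays. For most XTH genes the filled point lies to the right of 0 and the open point to the left.

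The XTH enzymes, which cut and rejoin xyloglucan chains, gave unlike differences in the 2 processing sets. In the first set 8 of 10 were above 0 (median 0.29), where 52.0% of all probe sets were. In the second 2 of 10 were (median -0.33), where 53.9% of all probe sets were. Of the 10 genes, 2 (XTH21 and XTH26) lay under 16 on all 6 arrays, and 3 were at or above 16 on every array. Over both sets 2 of 10 were above 0 and 8 below (median -0.07), where 52.6% of all probe sets were above 0. Of those below 0, XTH26, XTH16 and XTH21 lay close to 0, at -0.005, -0.016 and -0.048. Limma called 0 of the 10 interactions, with a smallest adjusted p of 0.277. EXGT-A3 (AT2G01850) had a log2 difference of 0.68 ± 0.42 (SE), at 198, 52.1 and 18.8 in P-starved and 179.8, 17.4 and 2.80 in replete shoots. XTH19 (AT4G30290) had -0.87 ± 0.57 (SE), with 1 bright array, replete replicate 2 at 131, against 11.2 to 30.9 on the other arrays. XTH32 (AT2G36870) had 0.24 ± 0.21 (SE). XTH29 (AT4G18990) was at 65.6, 4.30 and 1.60 in P-starved and 35.2, 20.6 and 25.8 in replete shoots, above replete in the first set and below it in the second. Its log2 difference was 0.67 in the first set, -1.05 ± 0.18 in the second and -0.48 ± 0.39 over both (SE). It was the 1 cell wall gene of 16 with an unadjusted p under 0.05 in the second set, at 0.00345 (limma adjusted p = 0.523). Of all probe sets, 3.79% had such a p there with a difference below 0 and 3.51% with one above 0. The interaction of XTH29 had an unadjusted p of 0.00767, where 9.94% of all probe sets had one under 0.05. Leaving out 1 array moved its difference over both sets to between -1.05, without either replicate 1 array, and -0.25, without P-starved replicate 3.

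All 4 pectin enzyme genes had differences above 0 over both sets, between 0.04 and 0.42. ATPMEPCRB (AT4G02330), a pectin methylesterase gene, had 0.42 ± 0.54 (SE), at 48.3, 0.60 and 42.2 in P-starved and 27.9, 0.90 and 18.8 in replete shoots, so that replicate 2 was dim in both groups. PME61 (AT3G59010) had 0.12 ± 0.31, AT1G48100 0.10 ± 0.19 and AT3G49220 0.04 ± 0.21 (SE). AT1G48100 was under 16 on 4 of 6 arrays. COB (AT5G60920), which directs the orientation of cellulose microfibrils, had 0.22 ± 0.23 (SE), with 0.79 in the first set and -0.07 in the second. It was under 16 on 5 of 6 arrays. CSLC04 (AT3G28180), which makes the glucan backbone of xyloglucan, had 0.11 ± 0.20 (SE). These differences were within the spread between arrays, and leaving out a replicate turned the sign of several of them.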

How the data were processed

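The authors deposited 1 intensity per probe set and array, on a linear scale, computed with MAS5 per the submitters' processing notes. The sources used here name no MAS5 version, scaling target or masking of probes. Signals were scaled to a 2% trimmed mean of 100 per array, and log2(signal + 16) was taken. The deposited values already had trimmed means of 100.005 to 100.04, so this scaling changed them little. Each mean was taken over the probe sets listed for that array, and these lists differ between the processing sets. Without 64 control probe sets, 19578 had a value on all 6 arrays. Between 21.8% and 33.9% of these lay under 16 on an array. Precision is limited by the number of arrays, and detection calls were not used.

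Differences between P-starved and replete arrays come from limma 3.58.1 under R 4.3.3 (lmFit, eBayes with a trend, two-sided, Benjamini-Hochberg over all probe sets), with group and processing set as terms. The script was tested on simulated data. Both sets hold both groups in equal number, so the block leaves each difference as it is and changes its error. Same-numbered arrays deviated together from their group means (r of 0.839, 0.551 and 0.530 for replicates 1, 2 and 3). Within the second set the deviation of replicate 2 from 3 correlated between the groups with r = 0.016. The first set holds the replicate 1 arrays alone, so an effect of that replicate and one of the processing cannot be told apart. Signals equal to 1 decimal counted as overlapping, a choice made after seeing the data.

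Gene names come from the platform annotation and a TAIR10.1 gene table, and 13436 of 13513 probe sets with 1 gene matched. For listed genes the probe set of highest mean signal was used. Every expansin was named, with up to 4 cell wall genes per group by smallest unadjusted p and 3 genes of like pattern each for EXPA15 and EXPA21. Members, lists and tests were chosen with earlier results of these data known. Gene coordinates were used only to find which genes lie next to each other, and no sequences were used.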

Additional observations from a re-analysis of the deposited data

How the results depend on the processing

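No expansin, no listed cell wall gene and no probe set passed the adjusted threshold in either direction under any of the alternatives run, in each of which the count called stayed 0. These were the group as the only term, the replicate number as a block, offsets of 4 and 64, the brighter 50% of the probe sets, 3 other scalings, eBayes without a trend, the replicate 2 and 3 arrays alone and leaving out each array. Of the scalings, the values as deposited nearly repeat the main fit and are not a separate check, because their trimmed means already lay near 100. The smallest adjusted p over all probe sets was 0.801 with the replicate block, which leaves every difference as it is, and 0.447 without replete replicate 1.

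The median of the expansin differences was 0.13, and 0.21 with offset 4 and 0.054 with offset 64, since the offset sets how far dim probe sets move. It ran from 0.10 to 0.19 when 1 array was left out, the highest without P-starved replicate 3. The count above 0 was 11 to 13 of 18 when 1 array was left out, and 7 of the 11 members among the brighter 50%, where fewer members are tested. The count without overlap in either set was 5 above and 1 below, and 6 above with ties parted by scaling. With the dimmest probe set of each cell wall gene the list's median was 0.015, as with the brightest. Only a gene with more than 1 probe set could change under this choice. The cell wall median ran from -0.014 to 0.093 when 1 array was left out.

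EXPA15 ran from 0.92 to 1.43 and EXPA21 from 0.52 to 1.02 when 1 array was left out. Without either replicate 1 array each difference equals that of the replicate 2 and 3 arrays, since the block takes up the array that remains. The 1.43 of EXPA15 and the 0.52 of EXPA21 are thus the second-set values again and not separate checks. EXPB5 (0.32 to 0.85), EXPB2 (0.22 to 0.31), EXLA1 (-0.44 to -0.15) and EXLB1 (-0.55 to -0.12) also kept their sign. EXPA16 (0.029 to 0.43) did too, as did EXLA2 (0.068 to 0.34), EXPA7 (0.10 to 0.15) and EXPA24 (0.061 to 0.15), which were under 16 on most arrays. Others changed sign: EXPA8 (-0.21 to 0.33), EXPA20 (-0.26 to 0.71), EXPA18 (-0.78 to 0.53), EXPA9 (-0.19 to 0.035), EXPA4 (-1.31 to 0.59), EXPB3 (-0.22 to 0.55), EXPB1 (-0.011 to 0.34) and EXLA3 (-0.19 to 0.42). So did COB (-0.067 to 0.45), XTH32 (-0.012 to 0.35), ATPMEPCRB (-0.076 to 0.96), PME61 (-0.12 to 0.34), AT3G49220 (-0.11 to 0.14) and CSLC04 (-0.066 to 0.26). With offset 64 EXPA20 was -0.064 and EXPA18 0.076, and on the replicate 2 and 3 arrays alone EXPA8 was -0.066, COB -0.067 and XTH32 -0.012. The cause of these changes was not tested.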

Other observations

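The 2 probe sets designed for several expansin genes are not members and belong to no comparison. The first had a signal of 36.4, 5.90 and 1.60 on P-starved replicates 1, 2 and 3, against 27.1, 1.70 and 3.10 on replete replicates 1, 2 and 3. The second was at 18.9, 3.00 and 5.20 on the P-starved arrays, against 39.0, 4.40 and 4.00 on the replete arrays. Both were under 16 on the replicate 2 and 3 arrays of both groups.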
